A study of Mus musculus with 3 samples.

Results

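The 30 genes described here carry peptides to the cell surface on MHC class I molecules or cut proteins into those peptides. They were taken from the 55357 genes of the count tables as a list of symbols fixed by name, and all 30 were present in both tables. By role, the list held 9 genes for the class I heavy chains and their light chain, 8 for the peptide loading complex and its ER chaperones, and 1 for the class I transactivator. The proteasome was represented by 3 constitutive catalytic subunits, 3 immunoproteasome catalytic subunits, 2 subunits of the PA28 activator and 4 subunits of the alpha ring.

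The cells came from tumours of 4T1, a mammary carcinoma line derived from a BALB/c mouse, carrying either sgCPT1A (genotype given as a CPT1A knockdown) or sgVC (genotype given as WT). CPT1A is the enzyme that admits long-chain fatty acids into mitochondria for oxidation. In both groups the tumours grew for 8 days in female mice of 8 to 10 weeks, and the whole tumour went through papain digestion and 10x 3′ sequencing with no sort described. The host strain, the number of mice per tumour sample and whether a line was 1 clone are not stated, and the labels call the tissue a xenograft. Of the 3 listed samples, 1 sgCPT1A and 1 sgVC sample had count tables, so each group was 1 library. Differences between the libraries therefore have no replicate check, and every interval covers counting error only.

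Class I molecules consist of a heavy chain bound to beta-2 microglobulin and present peptides of the cell's own proteins to CD8 T cells and to receptors of NK cells. The peptides are cut by the proteasome, pumped into the ER by the TAP transporter, trimmed there by ERAP1 and loaded with the help of tapasin, PDIA3, calreticulin and calnexin. Interferon gamma exchanges the constitutive catalytic subunits PSMB5, PSMB6 and PSMB7 for PSMB8, PSMB9 and PSMB10, which gives the immunoproteasome, and raises the PA28 activator and, through NLRC5, the class I genes themselves. Cells of the immune system carry immunoproteasomes without added interferon.

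The sgCPT1A library held 7198 barcodes with 35557125 UMIs and a median of 2786 UMIs, against 9890 barcodes with 155948212 UMIs and a median of 10809 UMIs in the sgVC library, and the libraries had 18 barcodes in common. Cells were assigned to classes by the markers of their cluster. Tumour-like cells numbered 9 in sgCPT1A and 4458 in sgVC, so no comparison between the libraries was made in them, and the knockdown of Cpt1a could not be checked in its target cells. Cpt1a stood at 17.3 CPM in sgVC tumour-like cells, and at 46.3 CPM in sgCPT1A against 27.5 CPM in sgVC fibroblast-like cells. Levels below are counts per 1000000 UMIs (CPM), with the UMIs of a gene summed over the cells of a class and library and divided by the class total. One tag end is counted per transcript, so levels were not scaled to gene length, and capture can still differ between genes.

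Of the 30 genes, 13 lay on chromosome 17, which holds the mouse MHC. The stretches below precede class I genes chosen by name (H2-K1, H2-D1, H2-Q4, H2-Q6, H2-Q7 and B2m). These have an IRF-type match, in 4 of them beside an enhancer A-type match. H2-T22, H2-T23 and H2-M3 also had an IRF-type match and are not shown. The stretch of Psmb9 and Tap1 is shown because both genes start from the same interval. All stretches were copied from RefSeq promoter windows on GRCm38.p6, each window reaching from 250 bases before a start to 50 bases after it. Of the 30 genes, 26 had a window (Tap2, Tapbpl, Psmb7 and Nlrc5 had none). Capitals mark matches, on either strand, to an enhancer A-type motif (GGGATTCCC), an IRF-type motif (AANNGAAA, read as TTTCNNTT on the other strand) or a GC box (GGGCGG).
H2-K1, chr17:34000414-34000473, minus strand: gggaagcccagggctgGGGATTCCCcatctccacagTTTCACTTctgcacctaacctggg
H2-D1, chr17:35262908-35262967, plus strand: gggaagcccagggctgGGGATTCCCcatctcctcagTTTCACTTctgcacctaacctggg
H2-Q4, chr17:35379438-35379497, plus strand: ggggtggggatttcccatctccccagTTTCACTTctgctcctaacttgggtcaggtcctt
H2-Q6, chr17:35424662-35424721, plus strand: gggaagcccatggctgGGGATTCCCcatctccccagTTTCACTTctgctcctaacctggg
H2-Q7, chr17:35439006-35439065, plus strand: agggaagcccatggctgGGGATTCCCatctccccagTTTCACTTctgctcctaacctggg
B2m, chr2:122147524-122147583, plus strand: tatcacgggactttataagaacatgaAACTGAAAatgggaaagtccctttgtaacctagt
Psmb9 to Tap1, chr17:34187331-34187555, plus strand: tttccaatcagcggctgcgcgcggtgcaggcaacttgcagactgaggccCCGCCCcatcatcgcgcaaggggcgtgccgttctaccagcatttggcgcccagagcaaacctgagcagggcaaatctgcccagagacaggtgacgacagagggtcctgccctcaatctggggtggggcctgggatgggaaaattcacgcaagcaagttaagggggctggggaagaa
The enhancer A-type letters were found in the windows of H2-K1, H2-D1, H2-Q6 and H2-Q7, and in 0.353% of the 32817 mouse windows. H2-Q4 and B2m showed the IRF-type match without the exact enhancer A letters. IRF-type matches were common, with 14 of the 26 windows against 23.9% of all windows, and a GC box was found in 14 of the 26 windows against 35.6% of all. A GAS-type motif (TTCNNNGAA) matched in H2-M3 and Psmb8 only, against 8.29% of all windows. The motif letters were settled with these windows in view, and a match is a description of the letters and not a shown binding site. Psmb9, on the minus strand, and Tap1, on the plus strand, have 225 bases between their starts.

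In sgVC, tumour-like cells carried H2-K1, H2-D1 and B2m at levels within the range of the immune classes. H2-K1, a classical heavy chain, stood at 2087 CPM in tumour-like cells, the fifth highest of the 10 classes with at least 20 sgVC cells. H2-D1, the other classical heavy chain of the list, stood at 3403 CPM and B2m, the light chain, at 2506 CPM, both the sixth of 10. Endothelial-like cells (21 cells) were highest for all of these, with 4617 CPM for H2-K1, 5261 CPM for H2-D1 and 3552 CPM for B2m, and basophil/mast-like cells (39 cells) were lowest. The order was close in its middle: H2-K1 of monocyte/macrophage-like, fibroblast-like and dendritic-like cells (1986, 1984 and 1954 CPM) had overlapping counting intervals. H2-T23, a class Ib heavy chain, was below every immune class in tumour-like cells. It was the ninth of 10 there at 165.8 CPM, against 237.1 CPM in monocyte/macrophage-like cells. Heavy-chain genes are near-copies of each other and differ between mouse strains, and the reads were aligned to GRCm38, a C57BL/6 genome of another MHC haplotype than BALB/c, so how reads were split between them is uncertain.

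The transporter genes, unlike the classical heavy chains, were at the bottom of the order in tumour-like cells. Tap1 was lowest there of all 10 classes, at 65.2 CPM (95% interval 63.8 to 66.6), against 80.0 CPM in fibroblast-like, 186.0 CPM in monocyte/macrophage-like and 295 CPM in dendritic-like cells, the highest class. Tap2, which encodes the partner chain of the transporter, was also lowest in tumour-like cells at 69.2 CPM, a level whose interval overlapped those of pericyte/smooth muscle-like (69.2 CPM) and fibroblast-like cells (71.2 CPM). Tapbp, which encodes tapasin, was the ninth in tumour-like cells at 119.9 CPM and was highest in neutrophil-like cells at 295 CPM. The ER chaperones Pdia3, Calr and Canx were highest in fibroblast-like cells (564, 716 and 271 CPM). Neutrophil-like cells were lowest for each of them, at 41.0, 77.6 and 56.4 CPM.

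Tumour-like cells ranked first of the 10 sgVC classes for 5 proteasome genes. Psmb5 stood at 377 CPM there, against 320 CPM in pericyte/smooth muscle-like cells, whose interval overlapped, and 29.1 CPM in neutrophil-like cells, the lowest class. Psmb7 (167.9 CPM), Psma3 (581 CPM) and Psma7 (1233 CPM, against 856 CPM in the next class, basophil/mast-like cells) were likewise highest in tumour-like cells. Psmb10, an immunoproteasome subunit, was highest in tumour-like cells too, at 251 CPM, with monocyte/macrophage-like cells close behind at 238 CPM. The other immunoproteasome subunits were led by dendritic-like cells, with 1320 CPM for Psmb8 and 916 CPM for Psmb9, and tumour-like cells were the third for Psmb8 (705 CPM) and the eighth for Psmb9 (280.2 CPM). For the PA28 genes Psme1 and Psme2, tumour-like cells were the second (581 and 597 CPM) after dendritic-like cells (848 and 908 CPM).

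Neutrophil-like cells stood apart in the opposite direction. In sgVC they were lowest of the 10 classes for Psmb5, Psmb6, Psmb7, Psmb10, Psme1, Erap1, the 4 alpha ring genes and the 3 ER chaperones named above, and highest for Tapbp and for Nlrc5, the transactivator of class I genes. Nlrc5 was at 104.9 CPM in sgVC neutrophil-like cells, 52.2 CPM in T-like cells and 13.7 CPM in tumour-like cells, and had 0 UMIs in the 39 basophil/mast-like cells, where 3 counts, the limit that a count of 0 allows, would be 21.1 CPM. Fibroblast-like cells were lowest for Psmb8 (328 CPM), Psmb9 (149.9 CPM) and Psme2 (254 CPM), although the interval of Psmb8 overlapped that of neutrophil-like cells. T-like cells led H2-Q6 and H2-Q7, class Ib heavy chains of the Qa region, at 224 and 460.1 CPM.

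**Figure D1:**
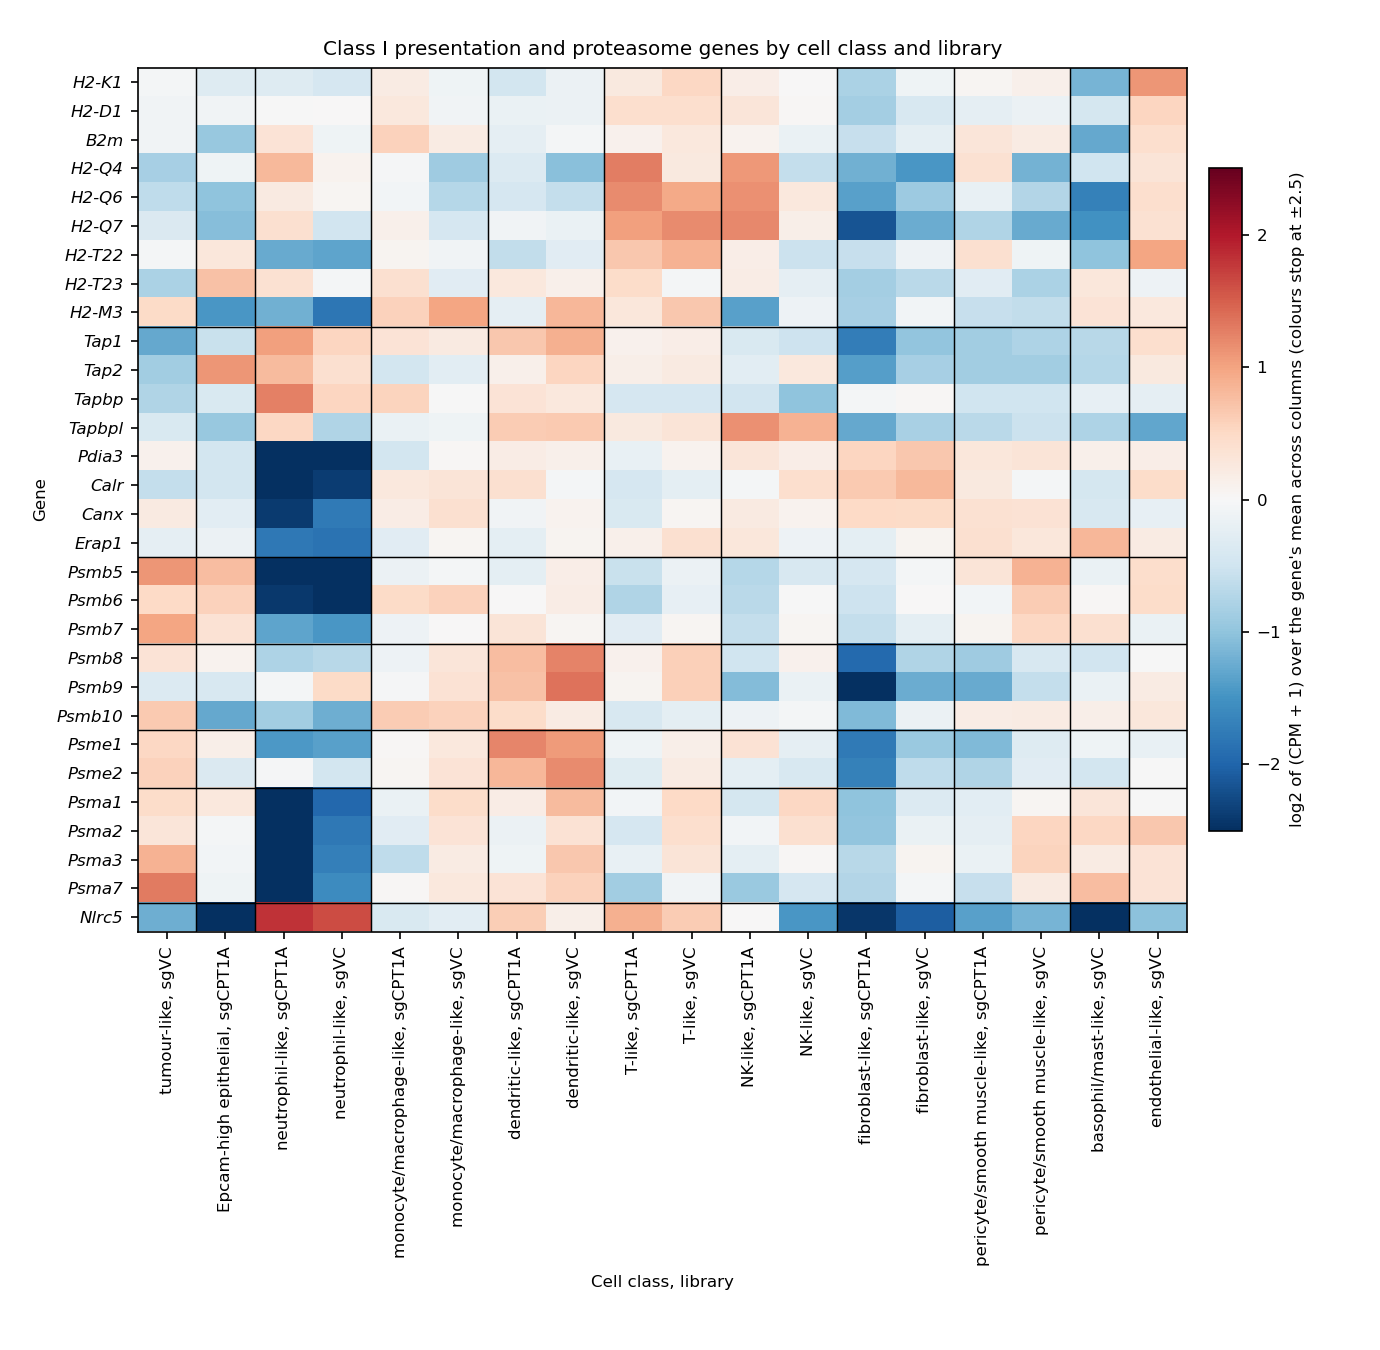
Colour gives the log2 of (CPM + 1) of each gene over its mean across the columns, for the 30 genes (rows, grouped by role) in every class and library with at least 20 cells (columns, sgCPT1A left of sgVC). Neutrophil-like columns are dark blue for the ER chaperones, constitutive subunits and alpha ring and red for Nlrc5, the sgVC tumour-like column is red for Psmb5 (377 CPM) and Psma7 (1233 CPM), and Psmb9 is at its lowest in sgCPT1A fibroblast-like cells (54.6 CPM).

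The sgVC tumour-like cells formed 3 clusters, and the class I genes differed between them more than the balance of proteasome subunits. Cluster 9 (2559 cells) had 3763 CPM of H2-D1, cluster 20 (1459 cells, with Ube2c among its leading genes) had 3093 CPM and cluster 15 (440 cells) had 2563 CPM. H2-K1 followed the same order, with 2153, 2057 and 1634 CPM, while B2m was highest in cluster 15 at 2968 CPM and lowest in cluster 20 at 2139 CPM. Cluster 20 was highest for all 6 catalytic subunits, for example Psmb9 at 316 CPM against 254 CPM in cluster 9 and 193.5 CPM in cluster 15. The immunoproteasome share of the catalytic subunits' UMIs was nevertheless 59.6% in cluster 9, 59.3% in cluster 20 and 59.4% in cluster 15. Depth differed between these clusters, with median UMIs per cell (over the few cells of both libraries) of 21181 in cluster 9, 34799 in cluster 20 and 10166 in cluster 15, and its part in these levels was not tested.

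Across the 4458 sgVC tumour-like cells, the highest correlations joined genes of the same or a neighbouring role. H2-D1 had a median of 33.9 UMIs per 10000 UMIs of the cell, with 10% of cells under 15.9 and 10% over 58.7. Psmb8 had a median of 6.37 and Tap1 of 0.455 on the same scale. Of the 435 pairs, H2-K1 with H2-D1 had the highest Spearman correlation (rho = 0.77), followed by Psmb10 with Psme2 (0.59), Psmb8 with Psmb9 (0.58) and H2-D1 with B2m (0.57). Psmb8 with Psme2 reached 0.52, Psmb5 with Psma7 0.45, and the lowest pair was B2m with Psmb5 (rho = -0.22). All cells share 1 library and differ in depth, so these values are descriptions, and in genes of few UMIs, such as Nlrc5, Tapbpl and Erap1, a weak correlation says little.

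**Figure D2:**
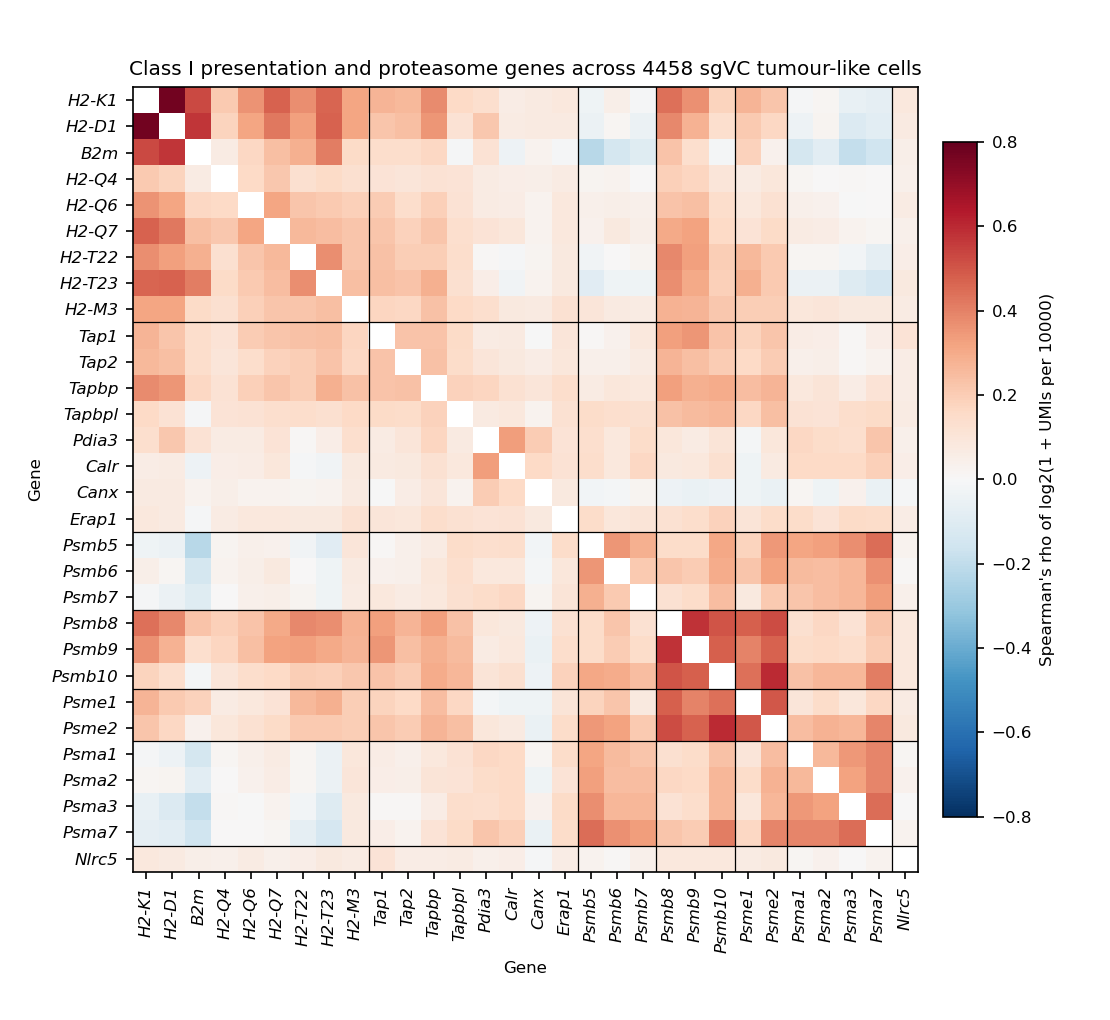
Each square gives Spearman's rho of log2(1 + UMIs per 10000) between a pair of the 30 genes across 4458 sgVC tumour-like cells, with genes in the same order, grouped by role, on both axes. Blocks of high values join H2-K1, H2-D1 and B2m (0.77 for H2-K1 with H2-D1) and join Psmb8, Psmb9, Psmb10, Psme1 and Psme2, and B2m is negative with Psmb5 (-0.22).

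The immunoproteasome share, the UMIs of Psmb8, Psmb9 and Psmb10 over those of all 6 catalytic subunits, needs no scaling between classes. It counts tags and not assembled proteasomes, and capture may differ between the 6 genes, so it is set against other classes and not read as a ratio of subunits. In sgVC it ran from 52.1% in pericyte/smooth muscle-like and 57.7% in fibroblast-like cells to 82.1% in dendritic-like and 90.6% in neutrophil-like cells. Tumour-like cells lay near the low end with 59.4% (exact Clopper-Pearson interval 59.2 to 59.6), between fibroblast-like (57.7%) and basophil/mast-like cells (64.8%, interval 57.7 to 71.5). The 30 Epcam-high epithelial cells of sgCPT1A had 56.1% (53.0 to 59.1). Clusters of this class passed tumour markers and also 7 of 9 (cluster 7) and 6 of 9 (cluster 23) normal mammary epithelium markers. Whether they were normal or tumour epithelium was not tested, so they are not a sgCPT1A counterpart of the tumour-like cells. Of the 3 exchange pairs, the tumour-like share was 65.1% for Psmb8 with Psmb5, 48.4% for Psmb9 with Psmb6 and 59.9% for Psmb10 with Psmb7.

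Between the libraries, the share in fibroblast-like cells was 45.0% in sgCPT1A (43.9 to 46.2) and 57.7% in sgVC (56.5 to 59.0), a log2 odds ratio of -0.74 (-0.84 to -0.64). All 3 pairs were lower there: Psmb9 with Psmb6 gave 26.9% in sgCPT1A against 41.3% in sgVC, Psmb8 with Psmb5 gave 52.7% against 65.9% in sgVC, and Psmb10 with Psmb7 gave 57.1% against 66.8% in sgVC. The gap between the libraries was narrower in the immune classes as clustered, but that order did not hold under every alternative given below. Dendritic-like cells had 79.0% in sgCPT1A and 82.1% in sgVC, monocyte/macrophage-like cells had 67.6% in sgCPT1A and 70.8% in sgVC, and neutrophil-like cells had 88.4% in sgCPT1A and 90.6% in sgVC. T-like cells had 77.7% in sgCPT1A and 77.8% in sgVC, with a log2 odds ratio of -0.01 and an interval of -0.14 to 0.12. That T-like ratio was 0.50 with called doublets kept, 0.26 with each cell placed by its own markers and -0.29 with a library-wide free RNA profile subtracted. The same subtraction gave -0.85 in dendritic-like cells, past the -0.77 of fibroblast-like cells. It removed 10.2% of T-like UMIs in sgCPT1A and 17.2% in sgVC, and 9.90% of dendritic-like UMIs in sgCPT1A and 29.4% in sgVC. In neutrophil-like cells Psmb9 with Psmb6 was at 89.8% in sgCPT1A and 93.5% in sgVC, Psmb8 with Psmb5 at 92.3% in sgCPT1A and 92.2% in sgVC, and Psmb10 with Psmb7 at 72.2% in sgCPT1A and 69.1% in sgVC, where the intervals overlapped. Within neutrophil clusters the share over all 6 subunits was 91.2% in sgCPT1A and 91.1% in sgVC in cluster 0, 88.6% in sgCPT1A and 91.4% in sgVC in cluster 2, and 90.4% in sgCPT1A and 90.5% in sgVC in cluster 8. Cluster 3, with 1045 sgCPT1A and 27 sgVC cells, had 82.7% in sgCPT1A and 73.5% in sgVC. The sgVC value rested on 49 UMIs, with an interval of 58.92 to 85.05 that included the sgCPT1A value. With each cell placed by its own markers instead of its cluster, the neutrophil log2 odds ratio was 1.20, against -0.35 by cluster.

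**Figure D3:**
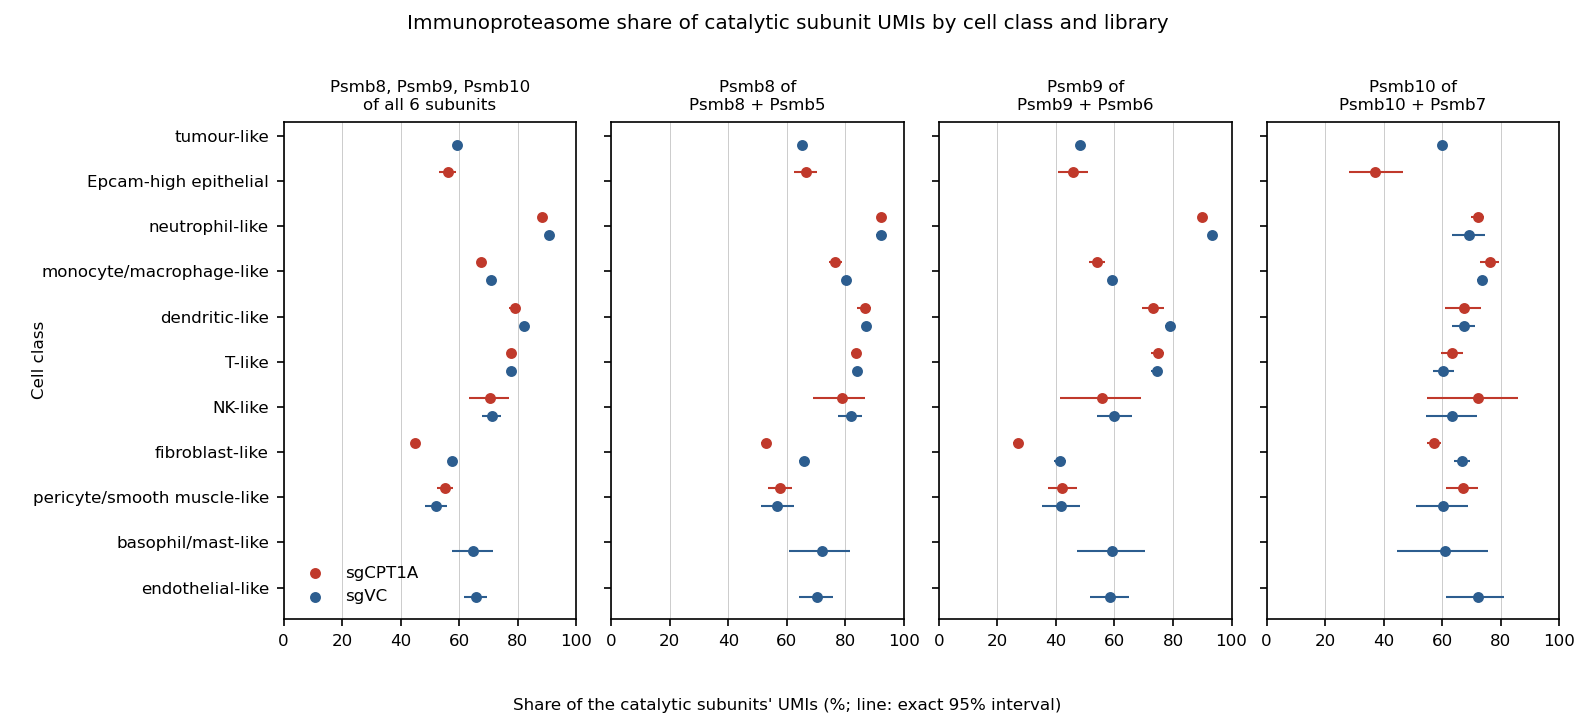
Points give the immunoproteasome share of catalytic subunit UMIs in percent, for all 6 subunits and for each exchange pair (panels), by cell class and library (sgCPT1A above sgVC in each row), and lines give exact 95% intervals. In the first panel fibroblast-like cells have 45.0% in sgCPT1A and 57.7% in sgVC, and neutrophil-like cells sit highest, with 88.4% in sgCPT1A and 90.6% in sgVC.

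In fibroblast-like cells (514 in sgCPT1A and 400 in sgVC), the immunoproteasome, PA28 and alpha ring genes were all lower in sgCPT1A. A gene was counted as higher or lower where its CPM differed by at least 1.5-fold, and all 30 genes had the minimum of 20 UMIs over both libraries in each class compared. None of the 30 was higher by that measure and 13 were lower, while 16.0% of the 13236 genes measured in this class were higher and 13.5% lower. The median log2 ratio of the 30 genes was -0.52, and that of all measured genes -0.02. By role, the lower genes were 3 of 3 immunoproteasome subunits, 2 of 2 PA28 subunits, 4 of 4 alpha ring subunits, 3 of 9 heavy and light chain genes and 1 of 8 loading genes, and none of the 3 constitutive subunits.

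Psmb9, the subunit that replaces PSMB6, had 54.6 CPM in sgCPT1A and 149.9 CPM in sgVC, a log2 ratio of -1.46 (95% interval -1.60 to -1.31). Psmb8, which replaces PSMB5, had 144.2 CPM in sgCPT1A and 328 CPM in sgVC (-1.18, -1.28 to -1.09). Psmb10, which replaces PSMB7, had 73.7 CPM in sgCPT1A and 142.9 CPM in sgVC (-0.96). All 3 exchangeable subunits therefore had whole intervals beyond 1.5-fold. Their constitutive partners were also lower but short of 1.5-fold, with Psmb6 at 148.2 CPM in sgCPT1A and 213 CPM in sgVC, Psmb5 at 129.2 CPM and 169.6 CPM in sgVC, and Psmb7 at 55.3 CPM and 71.1 CPM in sgVC. For the PA28 cap, which speeds peptide release, Psme2 had 122.2 CPM in sgCPT1A and 254 CPM in sgVC (-1.06), and Psme1 had 119.0 CPM in sgCPT1A and 214 CPM in sgVC (-0.84).

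Among the fibroblast heavy chains, H2-K1 had 1241 CPM in sgCPT1A and 1984 CPM in sgVC (-0.68, -0.71 to -0.64), whereas H2-D1, with 2015 CPM in sgCPT1A and 2761 CPM in sgVC (-0.45), and B2m, with 1786 CPM in sgCPT1A and 2238 CPM in sgVC (-0.32), differed by less than 1.5-fold. The class Ib genes H2-Q7 (44.2 CPM in sgCPT1A, 84.2 CPM in sgVC) and H2-M3, which presents N-formylated peptides (24.4 CPM in sgCPT1A, 41.9 CPM in sgVC), were lower by log2 ratios of -0.93 and -0.78. H2-Q4, another Qa heavy chain, ran the other way with 20.9 CPM in sgCPT1A and 17.5 CPM in sgVC (0.26), an interval that included 0. Tap1 had 47.6 CPM in sgCPT1A and 80.0 CPM in sgVC (-0.75, -0.93 to -0.57), against -1.46 for Psmb9, which starts from the same printed interval. The chaperones Canx (0.02), Pdia3 (-0.13) and Calr (-0.16) and tapasin's Tapbp (-0.09) had log2 ratios near 0. The alpha ring genes, the outer gate of the core particle, ranged from -0.83 for Psma2 to -0.67 for Psma1.

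Other measures moved with the fibroblast result, and some of them moved alike in other classes. The 11 tumour markers summed to 31.8 CPM in sgCPT1A fibroblast-like cells and 252 CPM in sgVC ones, with 1 of them at 0 in sgCPT1A and 2 in sgVC. They were lower in sgCPT1A in the other classes too. The sums were 19.6 CPM in sgCPT1A and 126.4 CPM in sgVC neutrophil-like cells, and 9.29 and 109.5 CPM in monocyte/macrophage-like cells. T-like cells had 77.4 CPM in sgCPT1A and 178.9 CPM in sgVC, and dendritic-like cells 158.8 and 401.2 CPM. In fibroblast-like cells the 11 neutrophil markers summed to 745 CPM in sgCPT1A and 200.7 CPM in sgVC, with 1 at 0 in sgVC. The 9 fibroblast markers summed to 82010 CPM in sgCPT1A and 55920 CPM in sgVC, and median UMIs per cell were 24472.5 in sgCPT1A and 14586 in sgVC. Malat1, a nuclear RNA, stood at 10510 CPM in sgCPT1A and 6286 CPM in sgVC, and mt-Rnr2, a mitochondrial ribosomal RNA, at 15330 CPM in sgCPT1A and 6804 CPM in sgVC. Both were also higher in sgCPT1A in monocyte/macrophage-like, T-like and dendritic-like cells, with the values given there. When a library-wide free RNA profile was subtracted (2.92% of UMIs in sgCPT1A and 8.02% in sgVC), 13 genes were again lower and the log2 odds ratio was -0.77. No share over all genes is given for that count. Within cluster 5 alone (435 sgCPT1A and 382 sgVC cells) 17 genes were lower and 0 higher, with Psmb9 at -1.57 and Psmb8 at -1.24, where 14.6% of the 12876 genes measured in the cluster were lower and 13.8% higher. The parts of RNA quality, depth and these marker sums in the ratios were not tested.

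**Figure D4:**
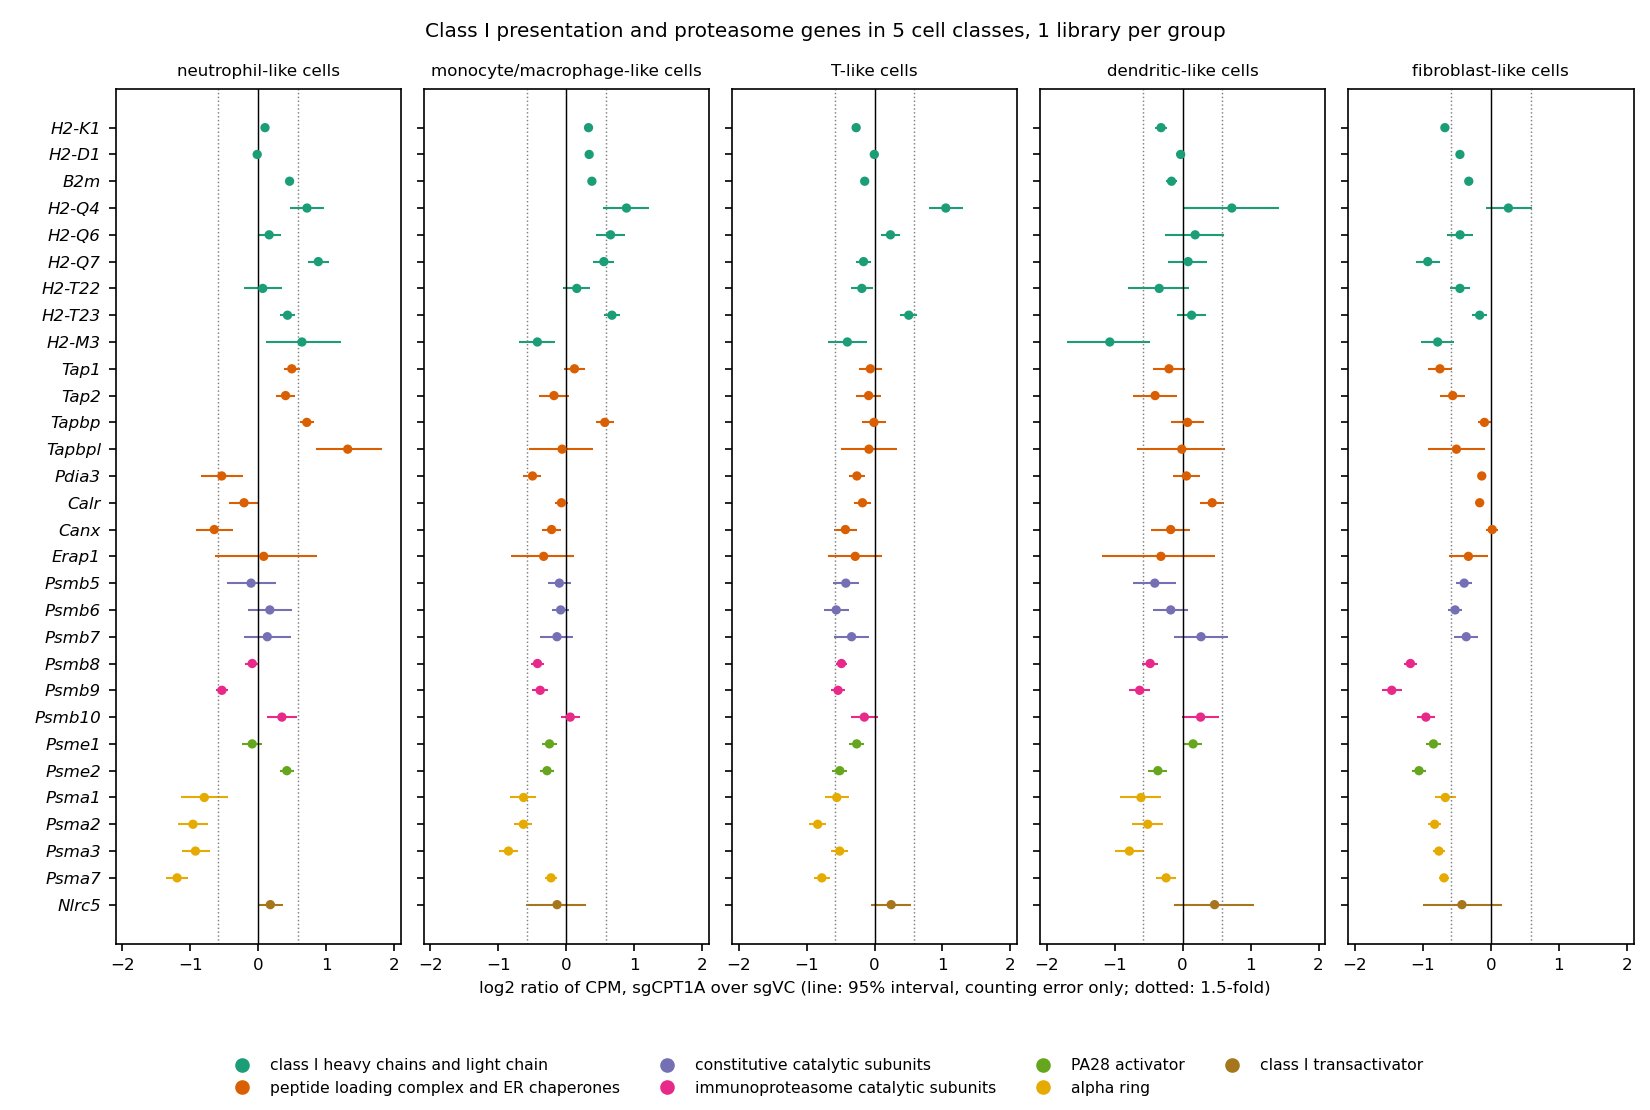
Points give the log2 ratio of CPM, sgCPT1A over sgVC, of the 30 genes (rows, coloured by role) in 5 cell classes (panels), lines their 95% counting intervals, and dotted lines 1.5-fold. The fibroblast panel lies left of 0 for all genes except H2-Q4 and Canx, with Psmb9 at -1.46, and the 4 alpha ring genes lie left of 0 in all 5 panels.

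In neutrophil-like cells (5125 in sgCPT1A and 1796 in sgVC), the tapasin genes and 3 class Ib heavy chains were higher in sgCPT1A and the alpha ring and calnexin were lower. Of the 30 genes 5 were higher and 5 lower, where 17.5% of the 9203 measured genes were higher and 35.8% lower. Neither count was above its share over all measured genes. The median of the 30 was 0.12 and that of all measured genes -0.30. Scaling by the median ratio of all genes instead of the class total gave 11 higher and 3 lower. That scaling shifts every gene of the class alike, and no share over all genes is given under it. Median UMIs per cell were 2629 in sgCPT1A and 1460.5 in sgVC, and the 11 neutrophil markers summed to 57490 CPM in sgCPT1A and 83720 CPM in sgVC. Malat1 was at 25090 CPM in sgCPT1A and 22190 CPM in sgVC. Unlike in the other classes compared, mt-Rnr2 was lower in sgCPT1A, at 13980 CPM against 15320 CPM in sgVC. The part of these in the ratios was not tested.

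Tapbpl, a tapasin relative that edits peptides, had 35.8 CPM in sgCPT1A and 14.4 CPM in sgVC (1.32, 0.85 to 1.82), and Tapbp had 484 CPM in sgCPT1A and 295 CPM in sgVC (0.72). H2-Q7 had 267 CPM in sgCPT1A and 144.4 CPM in sgVC (0.89, 0.74 to 1.04), H2-Q4 had 87.5 CPM and 53.2 CPM in sgVC (0.72), and H2-M3 had 18.5 CPM and 11.9 CPM in sgVC (0.64, with a lower bound of 0.12). The H2-M3 ratio changed sign, to -0.68, with each cell placed by its own markers. The classical chains were closer, with H2-K1 at 1723 CPM in sgCPT1A and 1606 CPM in sgVC and H2-D1 at 3593 CPM in sgCPT1A and 3629 CPM in sgVC. B2m had 3395 CPM in sgCPT1A and 2463 CPM in sgVC (0.46), Tap1 had 326 CPM and 231 CPM in sgVC (0.49), and Tap2 had 221 CPM and 167.0 CPM in sgVC (0.40), all short of 1.5-fold. Across their common interval from Tap1, Psmb9 had 345 CPM in sgCPT1A and 499 CPM in sgVC (-0.53, -0.62 to -0.45), so the pair differed in sign. The 4 alpha ring genes were all lower, from Psma1 (19.7 CPM in sgCPT1A, 34.1 CPM in sgVC, -0.79) to Psma7 (72.7 CPM in sgCPT1A, 166.3 CPM in sgVC, -1.19), and the chaperone Canx was at -0.65.

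Different neutrophil clusters held most of the class in each library, and the ratios depended on the cluster. Cluster 0 had 1979 sgCPT1A and 125 sgVC cells, cluster 3 had 1045 and 27 in sgVC, and cluster 4, led by genes that include Rsad2 and Slfn4, had 509 and 16 in sgVC. Cluster 8 had 240 sgCPT1A and 971 sgVC cells. Within cluster 2 (1350 sgCPT1A and 633 sgVC cells), none of the 30 genes was higher and 19 were lower, where 13.4% of the 6485 genes measured in the cluster were higher and 34.5% lower. The median was -0.79 for the 30 genes and -0.27 for all measured genes of the cluster. There H2-K1 had 1123 CPM in sgCPT1A and 1916 CPM in sgVC, Psmb8 had 203 CPM in sgCPT1A and 480 CPM in sgVC, and H2-Q7, at 150.9 CPM in sgCPT1A and 167.7 CPM in sgVC, and Tapbp, at 279 CPM in sgCPT1A and 350.3 CPM in sgVC, had ratios of -0.15, on an interval that included 0, and -0.33, both of the other sign than over the class. Tapbpl had 20.5 CPM in sgCPT1A and 20.3 CPM in sgVC there. H2-M3, higher over the class, had log2 ratios of -1.02 within cluster 0 and -0.80 within cluster 2, on few UMIs and with intervals that included 0, and its level was 48.9 CPM in the sgCPT1A cells of cluster 3. Within cluster 8, by contrast, Tap1 had 369 CPM in sgCPT1A and 208 CPM in sgVC (0.83) and H2-Q7 had 268 CPM in sgCPT1A and 121.6 CPM in sgVC (1.14). Psma7 was lower in sgCPT1A in each of clusters 0, 2 and 8 (-0.87, -1.43 and -0.62). In sgCPT1A, the cells of cluster 4 had the highest Tap1 of the class at 458 CPM, and those of cluster 3 the highest Psme2 at 803 CPM.

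**Figure D5:**
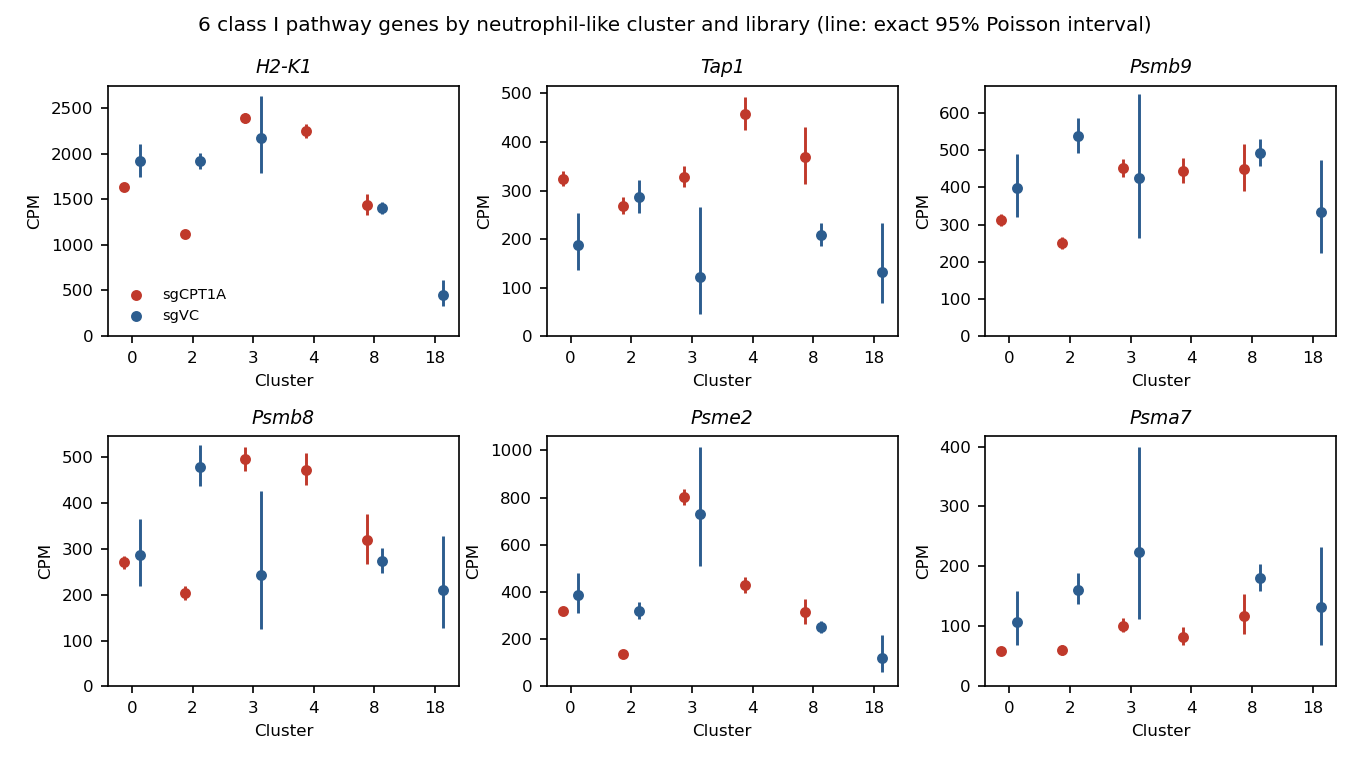
Panels give the CPM of 6 genes by neutrophil-like cluster (horizontal axis) and library (sgCPT1A left of sgVC), with exact 95% Poisson intervals, for clusters with at least 20 cells in a library. In cluster 2 the sgCPT1A points lie below the sgVC points for H2-K1, Psmb9, Psmb8, Psme2 and Psma7, whereas in cluster 8 Tap1 lies above (369 CPM in sgCPT1A, 208 CPM in sgVC).

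In monocyte/macrophage-like cells (303 in sgCPT1A and 1377 in sgVC, 1 cluster), 3 class Ib heavy chains were higher in sgCPT1A and 3 alpha ring genes lower. Of the 30 genes 3 were higher and 3 lower, where 15.1% of the 11115 measured genes were higher and 25.2% lower. Both counts were thus below the share over all measured genes. The median was -0.12 both for the 30 and for all measured genes. Scaling by the median ratio gave 5 higher and 1 lower, again with no share over all genes given. H2-Q4 had 48.8 CPM in sgCPT1A and 26.4 CPM in sgVC (0.89), H2-T23, the heavy chain of Qa-1 that engages NK receptors, had 378 CPM in sgCPT1A and 237 CPM in sgVC (0.67), and H2-Q6 had 110.1 CPM in sgCPT1A and 70.1 CPM in sgVC (0.65). H2-K1, H2-D1 and B2m had log2 ratios of 0.33, 0.34 and 0.38, for example 2491 CPM of H2-K1 in sgCPT1A and 1986 CPM in sgVC. H2-M3 ran the other way, with 66.0 CPM in sgCPT1A and 88.6 CPM in sgVC (-0.43). Psmb8 (512 CPM in sgCPT1A, 688 CPM in sgVC) and Psmb9 (349 CPM in sgCPT1A, 456 CPM in sgVC) were lower short of 1.5-fold, and Psmb10 (248 CPM in sgCPT1A, 238 CPM in sgVC) differed little. Psma3 had 204 CPM in sgCPT1A and 368 CPM in sgVC (-0.85). The neutrophil markers in these cells summed to 3947 CPM in sgCPT1A and 988 CPM in sgVC. Malat1 was at 14390 CPM in sgCPT1A and 8489 CPM in sgVC, and mt-Rnr2 at 22420 CPM in sgCPT1A and 10910 CPM in sgVC, and the part of these measures in the ratios was not tested. With the free RNA profile subtracted (9.69% of UMIs in sgCPT1A and 27.0% in sgVC), none of the 30 genes was lower and 5 were higher. No share over all genes is given for these counts.

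T-like cells (553 in sgCPT1A and 854 in sgVC) had 1 gene higher and 2 lower, where 13.6% of the 10150 measured genes were higher and 13.8% lower. The median of the 30 was -0.26 and that of all measured genes -0.04. H2-Q4 had 122.8 CPM in sgCPT1A and 59.3 CPM in sgVC (1.05, 0.80 to 1.30), and in cluster 1, the largest T-like cluster, its log2 ratio was 1.17. H2-T23 had 394 CPM in sgCPT1A and 278 CPM in sgVC (0.50), while H2-D1 had 4824 CPM in sgCPT1A and 4834 CPM in sgVC. Psma2 had 231 CPM in sgCPT1A and 413 CPM in sgVC (-0.84) and Psma7 had 273 CPM in sgCPT1A and 468 CPM in sgVC (-0.78). Psmb8 (-0.49), Psmb9 (-0.54) and Psmb6 (-0.56) were short of 1.5-fold, and the share over the 6 catalytic subunits depended on the alternatives given with it above. Among sgVC T-like cells, H2-Q7 stood at 603 CPM in cluster 6 (68 cells, with Cd8a) and 555 CPM in cluster 14 (86 cells, with Foxp3). It was at 527.5 CPM in cluster 21 (135 cells, also with Cd8a) and 393 CPM in cluster 1 (550 cells). The neutrophil markers summed to 2430 CPM in sgCPT1A and 342 CPM in sgVC T-like cells, Malat1 was at 15280 CPM in sgCPT1A and 8732 CPM in sgVC, and mt-Rnr2 at 24070 CPM in sgCPT1A and 12710 CPM in sgVC. Their part in the T-like ratios was not tested.

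Dendritic-like cells (65 in sgCPT1A and 223 in sgVC) had 1 gene higher and 4 lower, where 15.5% of the 8057 measured genes were higher and 20.8% lower. The median of the 30 was -0.18 and that of all measured genes -0.06. H2-M3 had 37.7 CPM in sgCPT1A and 79.3 CPM in sgVC (-1.07, -1.71 to -0.49), and Psmb9 had 591 CPM in sgCPT1A and 916 CPM in sgVC (-0.63, -0.79 to -0.48). Psmb8, at 947 CPM in sgCPT1A and 1320 CPM in sgVC, was short of 1.5-fold (-0.48), and Psmb10 had 219 CPM in sgCPT1A and 182.6 CPM in sgVC. H2-Q4 was higher, with 39.0 CPM in sgCPT1A and 23.6 CPM in sgVC (0.72), on an interval that began at 0.01. Calr had 536 CPM in sgCPT1A and 396 CPM in sgVC (0.43). The neutrophil markers summed to 2371 CPM in sgCPT1A and 686 CPM in sgVC dendritic-like cells. Malat1 was at 16940 CPM in sgCPT1A and 10210 CPM in sgVC, and mt-Rnr2 at 22560 CPM in sgCPT1A and 8956 CPM in sgVC, and none of these measures was tested for its part in the ratios.

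For the genes below, the sgVC dendritic clusters differed among themselves by more than the libraries did over the class. Psmb9 stood at 1279 CPM in cluster 28 (54 cells, with Xcr1 and Clec9a), 843 CPM in cluster 16 (91 cells, with Ccr7 and Fscn1) and 718 CPM in cluster 27 (78 cells, with Cd209a). H2-K1 had another order, with 2891 CPM in cluster 16, 1583 CPM in cluster 27 and 1248 CPM in cluster 28, as did Psme2, with 1415, 696 and 540 CPM in the same clusters. Cross-presenting dendritic cells are known by Xcr1 and Clec9a, and migratory ones by Ccr7 and Fscn1. In cluster 27, Psmb9 had 365 CPM in the 21 sgCPT1A cells and 718 CPM in the 78 sgVC cells.

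Classes with fewer than 50 cells in a library are given as values. In NK-like cells (31 in sgCPT1A and 83 in sgVC), H2-Q7 had 462 CPM in sgCPT1A and 224 CPM in sgVC, and the immunoproteasome share was 70.6% in sgCPT1A (63.3 to 77.1) and 71.2% in sgVC. Pericyte/smooth muscle-like cells (59 in sgCPT1A and 30 in sgVC) had shares of 55.1% in sgCPT1A (52.3 to 57.8) and 52.1% in sgVC (48.2 to 55.9). Their intervals overlapped, unlike those of fibroblast-like cells. Psmb9 in these pericyte/smooth muscle-like cells was at 148.1 CPM in sgCPT1A and 236 CPM in sgVC, and Psmb6 at 204 CPM in sgCPT1A and 332 CPM in sgVC.

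Genes around the pathway were counted as lists in the same 5 classes. Of all measured genes, 35.8% were lower in neutrophil-like, 13.5% in fibroblast-like, 13.8% in T-like, 25.2% in monocyte/macrophage-like and 20.8% in dendritic-like cells. In the same order of classes, 17.5%, 16.0%, 13.6%, 15.1% and 15.5% were higher. Whether a list differed from these shares was not tested. Of the 7 remaining core proteasome subunits none was higher in any of them, and 4 were lower in neutrophil-like, 4 in fibroblast-like, 3 in T-like, 3 in monocyte/macrophage-like and 1 in dendritic-like cells. Their median log2 ratio was -0.59 in neutrophil-like, -0.65 in fibroblast-like, -0.52 in T-like, -0.49 in monocyte/macrophage-like and -0.44 in dendritic-like cells. Psmb1 was at -1.22 in neutrophil-like and -0.68 in fibroblast-like cells, and Psmb2 at -0.98 in T-like and -0.97 in fibroblast-like cells. Of the 18 genes of the 19S regulator, the cap that unfolds substrates, 10 were lower in neutrophil-like cells, where 35.8% of all measured genes were, against 4 in dendritic-like, 3 in fibroblast-like, 2 in monocyte/macrophage-like and 1 in T-like cells. The 1 higher gene was in monocyte/macrophage-like cells. Psmd6 was at -1.70 in neutrophil-like cells. Of the other activators and assembly chaperones none was higher, and 4 were lower in monocyte/macrophage-like cells, 3 in each of neutrophil-like, T-like and dendritic-like cells and 2 in fibroblast-like cells. Pomp, the chaperone that assembles the core particle, was at -0.86 in fibroblast-like, -0.79 in monocyte/macrophage-like and -0.63 in T-like cells.

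Transcription factors of class I genes gave 3 higher and 2 lower of 14 measured in neutrophil-like cells (17.5% and 35.8% of all measured genes). In monocyte/macrophage-like cells 2 were higher and 1 lower of 16 (15.1% and 25.2% of all). In T-like cells 3 were higher and 0 lower of 14 (13.6% and 13.8% of all). There were 4 higher and 2 lower of 16 in dendritic-like cells (15.5% and 20.8% of all). Fibroblast-like cells had 0 higher and 3 lower of 15 (16.0% and 13.5% of all). In neutrophil-like cells Rfx5, part of the complex on class I and class II promoters, was at 1.65, Stat2, a transducer of type I interferon signals, at 1.04 and Nfkb1 at 0.83. In T-like cells Irf1, a factor induced by interferon, was at 0.67 and Stat2 at 0.94. In fibroblast-like cells Irf1 was at -0.30, Irf8, a factor known from immune cells, at -1.67 and Nfkb1 at -0.99. Nfkb1 was thus past 1.5-fold in both classes, in opposite directions, and the difference between the classes was not tested.

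Other class I and class I-like genes had 2 higher and 0 lower of 5 measured in neutrophil-like cells, 2 and 3 of 9 in monocyte/macrophage-like cells, 2 and 1 of 6 in T-like cells, 1 and 3 of 6 in dendritic-like cells and 0 and 1 of 8 in fibroblast-like cells. These counts, and those of the lists that follow, stand against the same shares over all measured genes given above for each class. H2-T24 was at 1.91 in monocyte/macrophage-like cells, and Cd1d1, which presents lipids, at -1.66 in dendritic-like cells. Cytosolic peptidases, which shorten or destroy peptides, had 1 higher and 1 lower in dendritic-like cells, 0 and 1 in fibroblast-like cells, and 0 and 2 in each of the other classes. Lap3, a leucine aminopeptidase, was lower in 4 classes, with -1.34 in T-like, -1.29 in dendritic-like, -1.21 in monocyte/macrophage-like and -0.76 in fibroblast-like cells. Of the 8 other ER chaperones, none was higher, and 6 were lower in neutrophil-like, 3 in monocyte/macrophage-like, 3 in T-like, 2 in fibroblast-like and 0 in dendritic-like cells. Sdf2l1 was at -1.28 in fibroblast-like cells. Among the receptors that bind class I, counts were 0 higher and 0 lower of 2 in neutrophil-like cells, 1 and 1 of 4 in monocyte/macrophage-like cells, 0 and 2 of 6 in T-like cells, 3 and 0 of 5 in dendritic-like cells and 2 and 0 of 4 in fibroblast-like cells. Cd8a was at -1.09 and Cd8b1 at -0.83 in T-like cells, whose Cd8a clusters 6 and 21 held 35 and 31 sgCPT1A cells and 68 and 135 sgVC cells.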

How the data were processed

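Whole dissociated tumours were profiled with 10x 3′ chemistry. The authors deposited raw UMI counts, a gene-by-barcode matrix for each sample, from Cell Ranger 7.1.0 per the file headers, and the submitters' processing notes also name Seurat 4.1.0 and GRCm38. The annotation release was not given in the sources used here, and 52081 of 55357 gene identifiers matched GENCODE M21. Of 3 listed samples 2 had count files, and whether the further sgCPT1A sample was pooled into the sgCPT1A counts is unknown.

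Cells were kept from 200 genes upwards if mitochondrial UMIs did not pass 20%. Scrublet called 3.03% of sgVC cells, which were left out, and 0.0148% of sgCPT1A cells. A rate under 0.5% was treated as a failed call, so mixed cells can remain in sgCPT1A. The 6743 sgCPT1A and 9319 sgVC cells shared 1 clustering without batch integration, at Leiden resolution 1 on 15 neighbours in 30 components of 2000 variable genes scaled to 10000 UMIs. Tools were anndata 0.12.19, igraph 0.11.9, leidenalg 0.10.2, matplotlib 3.10.9, numpy 2.4.6, pandas 2.3.3, Python 3.11.15, scanpy 1.11.5, scikit-learn 1.9.0 and scipy 1.17.1. A cluster was named from at least 3 markers at 2-fold over the median of all clusters, each found in at least 10% of its cells. Where several classes passed, the highest product of the share of markers passed and their mean log2 fold decided. Naming settings, including a second clustering at resolution 0.3 of mixed clusters, were set with the data in hand. Names were rebuilt here and can differ from the authors' own.

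UMIs were summed per class and library and scaled to CPM in classes of at least 50 cells per library (20 for levels alone). Levels have exact Poisson 95% intervals and shares exact Clopper-Pearson intervals. Ratios have an exact conditional binomial interval, which was checked on simulated counts. All cover counting error only. With 1 library per group there was no test. The named genes were all 30 members, plus, in 8 lists of related genes, the 2 highest levels and the 2 largest ratios per class with at least 50 UMIs. The genes, lists and markers were chosen with earlier results of these data known, and Malat1, mt-Rnr2 and Cpt1a serve as quality and target checks. Alternatives changed the cell filters, doublets, resolution, naming per cell, scaling, cell weights, free RNA, cluster and the UMI minimum.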

Additional observations from a re-analysis of the deposited data

Results flagged for a closer look

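H2-Q7 and H2-M3 stood out because their libraries differed in opposite directions in different classes. H2-Q7 had a log2 ratio, sgCPT1A over sgVC, of 0.89 in neutrophil-like cells and -0.93 in fibroblast-like cells. H2-M3 had 0.64 in neutrophil-like cells, -1.07 in dendritic-like cells and -0.78 in fibroblast-like cells. The neutrophil-like ratio of H2-M3 was -0.68 with each cell placed by its own markers. Each class had 1 library per group, so the difference between classes was not tested. Within neutrophil-like cluster 2 the ratios were -0.15 for H2-Q7 and -0.80 for H2-M3, and within cluster 0 they were 0.82 for H2-Q7 and -1.02 for H2-M3. Of these 4 ratios, the interval of H2-Q7 in cluster 0 lay above 0 and the other 3 intervals included 0.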

How the results depend on the processing

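No paired analysis was possible because each group had 1 library, and no replicate could be left out. The fibroblast-like median stayed between -0.64 and -0.48 over its alternatives, while with equal weight per cell 1 gene was higher and the log2 odds ratio was -0.49. In neutrophil-like cells, naming by each cell's own markers gave a median of -0.54, 8 genes higher, 12 lower, a log2 odds ratio of 1.20 and H2-M3 at -0.68. Median-ratio scaling gave 0.40, 11 and 3, and cluster 2 alone gave -0.79, 0 and 19, with H2-M3 at -0.80, H2-Q7 at -0.15 and Tapbp at -0.33. In monocyte/macrophage-like cells at most 10% mitochondrial UMIs left 1 gene lower, kept doublets gave a log2 odds ratio of -0.056, median-ratio scaling 5 higher and 1 lower, equal weight 1 and 5, and free RNA subtraction 5 and 0 with -0.50. In T-like cells kept doublets gave 4 higher, 7 lower and 0.50, own markers 2, 5 and 0.26, equal weight 8 lower and free RNA subtraction -0.29. In dendritic-like cells 2 genes were higher with own markers and with free RNA subtracted (log2 odds ratio -0.85), 4 higher and 7 lower in cluster 16 alone (18.1% and 25.8% of its 4673 measured genes), and 0 higher at 100 UMIs. The cause was not tested for any of these. Apart from the single-cluster counts, no share over all measured genes is given under these alternatives. Such settings can shift other genes too, so whether the changed counts are particular to the listed genes was not tested. Of 353 values for 37 single-gene results, 286 kept within their interval, 63 moved and 4 changed sign. The single-cluster alternative was not run for monocyte/macrophage-like cells, which were 1 cluster, nor free RNA subtraction for neutrophil-like cells, since their own genes set its size. Depth limits genes of few UMIs, and intervals give the size of that limit.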
